A study of Mus musculus with 53 samples.

Results

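Hepcidin and 9 further genes of iron handling were followed through 3 experiments on mouse liver: Hamp, Hamp2, Tfrc, Tfr2, Slc40a1, Fth1, Ftl1, Trf, Scara5 and Hfe. They were chosen by symbol, as 10 of the 36410 gene identifiers that all 3 count tables hold, and all 10 passed the filter on low counts in each table. The livers came from male C57BL/6J mice, wild type or labelled Bmp8b knockout, with 53 libraries of 1 liver each. In the diet experiment mice aged 9 weeks ate Teklad diets for 32 weeks, giving 9 wild-type livers on the low-fat diet TD08485, 7 wild-type livers on the Western diet TD88137 and 7 labelled knockout livers on the Western diet. In the toxin experiment mice aged 16 weeks were injected into the abdomen with 2 ul per g of olive oil (6 wild type) or of carbon tetrachloride in olive oil (CCl4, a liver toxin, with 4 wild type and 6 labelled knockout), and livers were taken on day 3. In the surgery experiment, also at 16 weeks, 5 wild-type samples were the liver removed at partial hepatectomy (day 0), and 5 wild-type and 4 labelled knockout livers were taken on day 3. The labels call the wild types littermates and name no knockout liver without a challenge.

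A library held 8963187 to 15196537 counts in the diet table, 2661699 to 6364414 in the CCl4 table and 2450358 to 6914274 in the hepatectomy table. Markers of hepatocytes, 10 of 10, were present in every group, with summed levels of 61050 to 167200 CPM (counts scaled to a common library total and normalized for composition). Bmp8b, the targeted gene, averaged 1.53 CPM in labelled knockout livers on Western diet against 1.07 in wild type, 1.18 against 0.464 after CCl4 and 2.12 against 0.848 at day 3 of hepatectomy. Its counts thus did not check the knockout label, and the wording "labelled knockout" is kept. A pair of CCl4 livers, wild-type 34 and labelled knockout 35, differed from the remaining 8: their markers of dividing cells summed to 22.5 and 29.0 CPM, against 187 to 721, and 1 of 7 Kupffer cell markers, Marco, stood at 351 and 469 CPM, against 11.7 to 89.7. Without Marco the other 6 summed to 257 and 294 CPM in these livers, within the 169 to 393 of the remaining 8. Hepatocyte markers summed to 61050 CPM in liver 34 and 105700 in liver 35, against 98100 to 167200. Markers of monocyte-derived macrophages summed to 653 and 1453 CPM, against 275 to 574, and of sinusoidal endothelium to 246 and 292, against 119 to 176. Sums of stellate and of erythroid markers lay within the range of the remaining 8. Livers 34 and 35 carry the i5 index D505 in their library names, and the remaining 8 carry D503 or D504. The index and the other traits of livers 34 and 35 therefore cannot be told apart.

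Hepcidin is a small hormone that hepatocytes secrete when iron is plentiful or the liver is inflamed. It binds ferroportin, the product of Slc40a1 and the only known exporter of iron from cells, and leads to its breakdown, so that less iron enters the blood. Signals of bone morphogenetic proteins (BMPs) through SMAD proteins, helped by the iron sensors Tfr2 and Hfe, raise hepcidin transcription, and interleukin-6 raises it through STAT3. Inside cells, iron regulatory proteins bind short RNA hairpins, the iron-responsive elements: they block translation from hairpins ahead of the coding sequence and protect mRNA from decay at hairpins behind it.

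Mice carry a pair of hepcidin genes. Hamp (ENSMUSG00000050440) lies at chr7:30942368-30944032 and Hamp2 (ENSMUSG00000056978) at chr7:30922372-30924681, both on the minus strand of GRCm38 and 17.7 kb apart. Their transcripts were identical at 92.4% of aligned bases, and 16.6% of all 50-base stretches of Hamp also occur in Hamp2, so a read from such a stretch cannot be assigned. The promoters are shown because the proportion of Hamp to Hamp2 varied widely between livers while their promoters were 89.7% identical over 250 bases. The lines below run from 190 to 20 bases before the RefSeq start (GRCm38.p6, minus strand, chr7:30944049-30944219 for Hamp and chr7:30924201-30924371 for Hamp2). Capitals mark TTCTTGGAA, the kind of site that STAT3 binds, and GGCGCC, the letters of the BMP-responsive element known from the human gene, or the letters that stand in its place.
Hamp: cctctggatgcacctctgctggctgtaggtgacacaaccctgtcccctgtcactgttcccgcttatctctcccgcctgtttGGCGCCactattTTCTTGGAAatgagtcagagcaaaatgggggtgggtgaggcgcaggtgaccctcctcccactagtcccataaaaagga
Hamp2: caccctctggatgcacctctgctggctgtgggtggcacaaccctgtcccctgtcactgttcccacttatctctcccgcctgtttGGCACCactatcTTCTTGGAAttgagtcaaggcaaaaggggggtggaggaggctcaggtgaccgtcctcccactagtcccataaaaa
In Hamp, GGCGCC spans -109 to -104 and TTCTTGGAA -97 to -89. In Hamp2 the stretch at -106 to -101, equally far ahead of TTCTTGGAA (-94 to -86), reads GGCACC. The letters GGCGCC, the same on both strands and not overlapping the other motif, occurred in 9.59% of 32851 RefSeq promoters of 250 bases, TTCTTGGAA on either strand in 0.365%, GGCACC on either strand in 12.9%, and GGCGCC with TTCTTGGAA in 3 promoters. A match of letters is a description and shows no binding.

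The letters of the iron-responsive element, CNNNNNCAGTGN with the 5 bases after the first C able to pair with the 5 after the loop (sense strand), were found in 4 of the 10 genes. They are shown because these genes, Tfrc, Slc40a1 and the ferritins, encode proteins that take up, export and store iron. Each site is 30 bases of GENCODE transcript sequence (GRCm38), with the 6 loop letters CAGTGN in capitals. The 5′ UTR sites lie at chr19:9982732-9982761 (Fth1, plus strand), chr7:45459778-45459807 (Ftl1, minus) and chr1:45925464-45925493 (Slc40a1, minus), and the first and last of the 4 Tfrc sites, in the 3′ UTR, start at chr16:32631219 and end at chr16:32631739 (plus).
Fth1: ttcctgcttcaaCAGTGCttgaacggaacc
Ftl1: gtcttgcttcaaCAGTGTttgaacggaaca
Slc40a1: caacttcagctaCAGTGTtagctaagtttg
Tfrc, site 1: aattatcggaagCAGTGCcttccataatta
Tfrc, site 2: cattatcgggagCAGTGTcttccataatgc
Tfrc, site 3: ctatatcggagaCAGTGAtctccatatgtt
Tfrc, site 4: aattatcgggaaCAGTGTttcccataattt
The same letters were found in the 5′ UTR of 0.14% of 19977 genes and in the 3′ UTR of 0.611% of 20787 genes.

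Per kilobase of the principal transcript, hepcidin, the ferritins and transferrin were the most abundant of the 10 in every group and Tfrc, Scara5, Hfe and, outside the diet experiment, Hamp2 the least. On low-fat diet Hamp averaged 1279 CPM per kb, ahead of Fth1 at 1044 and Ftl1 at 829. On Western diet Hamp, at 410 CPM per kb, ranked 3, behind Fth1 at 1218 and Ftl1 at 945. At day 3 of hepatectomy Hamp ranked 4 at 214 CPM per kb, behind Fth1 at 1061, Trf at 758 and Ftl1 at 264. After CCl4 Hamp was first, at 2473 CPM per kb in wild type, as it was after olive oil, at 1640. Ftl1 in the hepatectomy table, at 264 to 283 CPM per kb over the 3 groups, was below its 829 to 1363 in the other tables. That table was counted on another gene annotation and the tables were normalized separately, so levels set across them are descriptions.

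**Figure D1:**
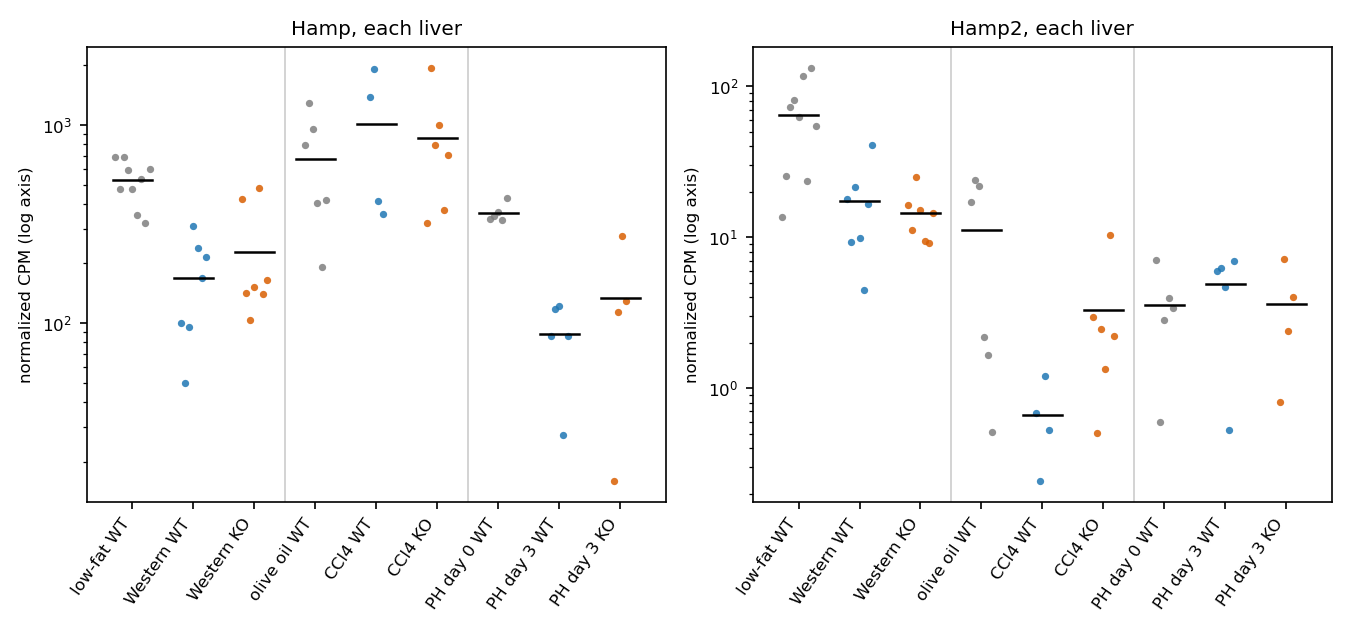
Normalized CPM (log axis) of Hamp and Hamp2 in each of the 53 livers by group, with the group mean as a bar; WT is wild type, KO labelled knockout and PH partial hepatectomy. Hamp was lower in all 7 wild-type Western diet livers than in any low-fat liver and lower in all 5 day 3 wild-type livers than in any day 0 liver, while after CCl4 the wild-type livers spread from 357 to 1911 CPM.

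Hamp fell on Western diet, and Hamp2 fell with it. In the 9 low-fat livers Hamp ran from 319 to 691 CPM with a median of 535, and in the 7 wild-type Western diet livers from 49.7 to 308 with a median of 168. The groups did not overlap. Hamp fell 3.12-fold (log2 fold change -1.64, SE 0.34, edgeR adjusted p = 0.000632). Hamp2 ran from 13.5 to 133 CPM (median 62.6) on low-fat diet and from 4.49 to 41.0 (median 16.7) on Western diet. The Hamp2 groups overlapped, with 3 of 7 Western diet livers below every low-fat liver. Hamp2 fell 3.77-fold (log2 fold change -1.91, SE 0.42, edgeR adjusted p = 0.001). In all, 4 of the 10 genes were called here, 3 lower and 1 higher, where 37.4% of 13005 tested genes were called, 17% lower and 20.4% higher, and 2 of the 10 had groups that did not overlap, against 7.27% of all tested genes. The members' median log2 fold change was -0.00 and that of all tested genes -0.02.

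The fall of Hamp was found within each of the 2 sequencing indices (the i5 index in the library names) that both diets share, with log2 fold changes of -2.89 (SE 0.24) and -0.97 (SE 0.21). The summed level of 10 hepatocyte markers was 62300 to 91760 CPM in wild-type Western diet livers, below the 94580 to 131400 of low-fat livers. Of the 10 markers 8 fell, where 17% of all tested genes did. Markers of monocyte-derived macrophages summed to 262 to 925 CPM against 87.5 to 182. In whole liver, fewer hepatocytes and less RNA per hepatocyte cannot be told apart, and the part of either in the fall of Hamp was not tested.

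After CCl4 Hamp2 was called lower and Hamp was not called. Hamp was 402, 191, 418, 790, 1283 and 951 CPM in olive oil livers 24, 26, 27, 28, 29 and 30, and 1376, 1911, 412 and 357 in wild-type CCl4 livers 4, 34, 5 and 7. The groups overlapped, with livers 4 and 34 above every olive oil liver. The log2 fold change of Hamp was 0.59 (SE 0.58, edgeR adjusted p = 0.505), and 0.09 without liver 34. In livers 34 and 35 Hamp stood at 1911 and 1943 CPM, with the other 8 CCl4 livers at 318 to 1376. The 10 acute phase genes summed to 69330 and 55600 CPM in these livers, against 13290 to 55180 in the other 8, the 55180 being liver 4, and the neutrophil markers to 211 and 92.4 CPM, against 4.71 to 68.3. Livers 34 and 35 are also the only CCl4 livers with index D505. Olive oil livers 28, 29 and 30, at 790, 1283 and 951 CPM of Hamp, carry D505 too. Olive oil livers 24, 26 and 27, at 402, 191 and 418, carry D504. The part of these markers or of the index in the level of Hamp was not tested. With the index as a covariate the log2 fold change of Hamp was 1.35 (edgeR adjusted p = 0.0466). That fit rests on the CCl4 livers 22, 34 and 35, which share an index with olive oil livers.

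Hamp2 after CCl4 fell 15.5-fold (log2 fold change -3.95, SE 1.05, edgeR adjusted p = 0.0153), from few counts. It was 2.19, 1.67 and 0.515 CPM in olive oil livers 24, 26 and 27, and 17.0, 24.0 and 21.9 in olive oil livers 28, 29 and 30. In wild-type CCl4 livers 4, 34, 5 and 7 it was 0.685, 0.242, 1.199 and 0.525 CPM, from 3, 1, 9 and 3 counts. The CCl4 livers thus overlapped the lower olive oil livers. Olive oil livers 28, 29 and 30 carry index D505 and livers 24, 26 and 27 carry D504, while 3 of the 4 wild-type CCl4 livers carry D503, which no olive oil liver has. Only liver 34 among wild-type CCl4 livers shares an index with olive oil livers, so a fit of 1 index alone was not run. With the index as a covariate the log2 fold change of Hamp2 was -5.50 (SE 1.00, edgeR adjusted p = 0.00115), which rests on the CCl4 livers 22, 34 and 35. Of the 10 genes 2 were called after CCl4, Hamp2 and Tfrc, 1 lower and 1 higher, where 20% of 11663 tested genes were called, 8.87% lower and 11.1% higher. No gene of the 10 had groups that did not overlap, against 16.9% of all tested genes. Without livers 34 and 35, 4 of the 10 were called, with log2 fold changes of -3.72 for Hamp2, 1.08 for Tfrc, -0.71 for Tfr2 and 0.69 for Trf. Calls over all genes were more as well in that fit, with 1527 of 11734 tested genes called higher and 1396 lower.

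At day 3 of hepatectomy Hamp fell 4.13-fold (log2 fold change -2.05, SE 0.43, edgeR adjusted p = 0.00205) and Hamp2 was not called. At day 0 Hamp was 347, 365, 331, 428 and 337 CPM in mice 12, 13, 14, 15 and 16, and at day 3 it was 85.9, 118, 123, 27.3 and 86.2. The groups did not overlap. Hamp2 was 0.597, 2.82, 3.95, 3.41 and 7.05 CPM at day 0 and 5.97, 6.23, 4.65, 0.525 and 6.96 at day 3. These overlapped, with a log2 fold change of 0.52 (SE 0.59, edgeR adjusted p = 0.606). Day 0 libraries carry indices D505 and D506 and day 3 libraries D507, so the index and the day cannot be told apart. Of the 10 genes 4 were called, 2 lower and 2 higher, where 17.4% of 11026 tested genes were called, 7.5% lower and 9.87% higher, and 2 had groups that did not overlap, against 13% of all tested genes. Markers of hepatocytes were higher in sum at day 3, at 128800 to 148300 CPM against 86300 to 106900 at day 0, while of the 10 markers 1 rose (Alb) and 2 fell.

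When all 53 livers were fitted together, the response of Hamp to CCl4 differed from its responses to the other challenges, a result that depended on liver 34. Its log2 fold change on Western diet was 2.21 lower than after CCl4 (difference -2.21, SE 0.66, edgeR adjusted p = 0.0172), and its change after CCl4 was above that at hepatectomy by 2.62 (SE 0.74, edgeR adjusted p = 0.0248). Diet and hepatectomy gave a difference of 0.41 (SE 0.66, edgeR adjusted p = 0.805). Hamp2 differed between CCl4 and hepatectomy, by -4.53 (SE 1.29, edgeR adjusted p = 0.0263). Beside Hamp and Hamp2, only Hfe was called among the 10, between diet and CCl4. Without wild-type CCl4 liver 34 both differences of Hamp lost their call, at -1.73 (edgeR adjusted p = 0.0801) and 2.13 (edgeR adjusted p = 0.0938), as did those of Hamp2, at -4.32 (edgeR adjusted p = 0.0621), and Hfe, at 0.36 (edgeR adjusted p = 0.0753). Trf was then the only one of the 10 called, between diet and CCl4 (difference -0.71, edgeR adjusted p = 0.0408). The backgrounds were 16.1% of 12646 tested genes for diet against CCl4, 3.53% for diet against hepatectomy and 6.09% for CCl4 against hepatectomy.

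Between labelled knockout and wild type, neither hepcidin gene was called in any challenge, and on Western diet and after CCl4 none of the 10 was. None of the 10 had an unadjusted p under 0.05 by edgeR in those comparisons. The background there was 0.0154% of 13005 tested genes called on Western diet and 0.00857% of 11663 after CCl4. On Western diet Hamp ran from 104 to 480 CPM (median 153) in the 7 labelled knockout livers, with livers 1 and 15, at 421 and 480, above every wild-type Western diet liver. Its log2 fold change was 0.45 (SE 0.35, edgeR adjusted p = 0.823), with opposite signs within the indices, 1.66 in D501 and -0.60 in D502. After CCl4 Hamp ran from 318 to 1943 CPM (median 751) in the 6 labelled knockout livers (log2 fold change -0.25, SE 0.59, edgeR adjusted p = 0.967). Hamp2 ran from 0.501 to 10.4 CPM there, and 5 of 6 livers lay above every wild-type CCl4 liver (log2 fold change 2.16, SE 1.05, edgeR adjusted p = 0.807). At day 3 of hepatectomy Hamp was 16.0, 114, 275 and 129 CPM in livers 17, 18, 19 and 20 (log2 fold change 0.60, SE 0.45, edgeR adjusted p = 0.744). Liver 17 was below and livers 19 and 20 above every wild-type day 3 liver.

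Set against the unchallenged wild-type livers that also served the comparisons above, the labelled knockout livers gave Hamp log2 fold changes of -1.19 on Western diet (edgeR adjusted p = 0.0119), 0.35 after CCl4 (edgeR adjusted p = 0.746) and -1.45 at day 3 of hepatectomy (edgeR adjusted p = 0.0403). For Hamp2 they were -2.18 (edgeR adjusted p = 0.0009), -1.79 (edgeR adjusted p = 0.173) and 0.07 (edgeR adjusted p = 0.965). These 6 values share their control livers with the wild-type comparisons. Of the 10 genes, 4 were called on Western diet (25.2% of all tested genes), 1 after CCl4 (9.3%) and 3 at hepatectomy (12.2%).

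**Figure D2:**
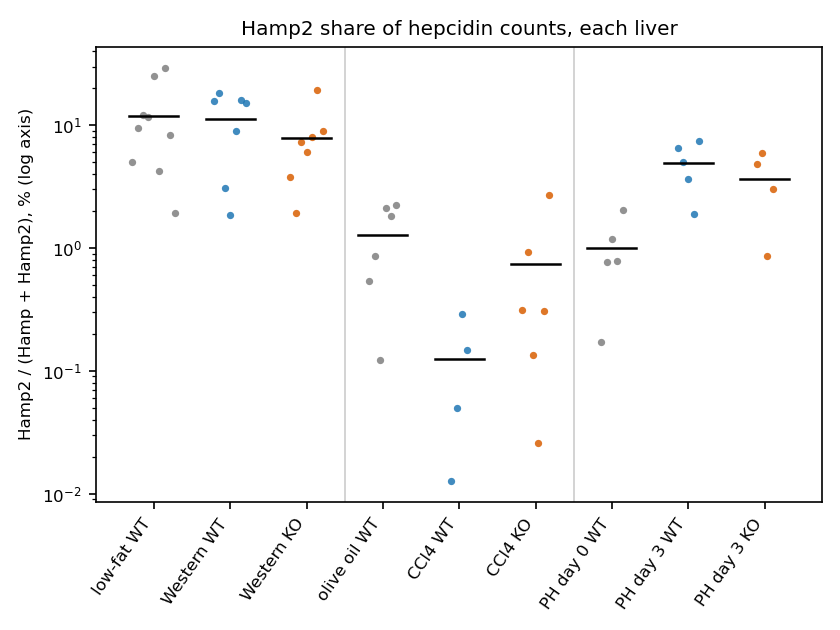
Share of hepcidin counts (Hamp plus Hamp2) that came from Hamp2, in percent on a log axis, for each liver by group, with the group mean as a bar. The diet livers lay between 1.84% and 29.4%, and the wild-type CCl4 livers at or below 0.29%.

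Hamp2 made up a varying share of the hepcidin counts. The share was 11.9% ± 9.39 (SD, n = 9) on low-fat diet, from 1.94% to 29.4%, and 11.3% ± 6.67 (SD, n = 7) in wild type on Western diet, from 1.84% to 18.3%. The difference in share was -0.63 percentage points (exact permutation test, two-sided, p = 0.891, adjusted over 6 comparisons 0.891). It was 1.29% ± 0.892 (SD, n = 6) after olive oil and 0.125% ± 0.124 (SD, n = 4) in wild type after CCl4 (exact permutation p = 0.0286, adjusted 0.0857). Olive oil livers 28, 29 and 30 (index D505) were at 2.10%, 1.83% and 2.25%, and livers 24, 26 and 27 (D504) at 0.542%, 0.863% and 0.123%. The CCl4 livers, up to 0.29%, overlapped these, and CCl4 livers 4, 5 and 7 carry D503, which no olive oil liver has. The share was 0.992% ± 0.694 (SD, n = 5) at day 0 and 4.91% ± 2.23 (SD, n = 5) at day 3 of hepatectomy, with 4 day 3 livers above every day 0 liver (exact permutation p = 0.0159, adjusted 0.0857). Neither difference passed after adjustment. The 3 comparisons of labelled knockout with wild type gave adjusted p values of 0.324 to 0.495 by the same test.

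Tfr2 and Hfe encode the sensors that hepatocytes use to read iron in the blood. Tfr2 (transferrin receptor 2, chr5:137569840-137587481) ran from 357 to 434 CPM (median 403) on low-fat diet and from 232 to 357 (median 310) in wild type on Western diet. These groups did not overlap, and Tfr2 fell 1.31-fold (log2 fold change -0.39, SE 0.11, edgeR adjusted p = 0.00588). Within the indices its log2 fold changes were -0.55 (edgeR adjusted p = 0.00643) and -0.27 (edgeR adjusted p = 0.0712). CCl4 livers 4, 34, 5 and 7 were at 396, 352, 218 and 195 CPM, against 386 to 505.2 (median 443) after olive oil. Its log2 fold change there was -0.60 (edgeR adjusted p = 0.0606), -0.70 without liver 34 (edgeR adjusted p = 0.0466) and -0.79 without liver 4 (edgeR adjusted p = 0.0256), but -0.24 with the index as a covariate (edgeR adjusted p = 0.502). At hepatectomy it was -0.17 (SE 0.10, edgeR adjusted p = 0.301).

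Hfe (chr13:23702034-23710854), the gene altered in human hereditary haemochromatosis, had group means from 46.8 to 61.1 CPM. It was called in no comparison of challenge or label. Its lowest means were those of the CCl4 livers, 46.8 ± 5.66 CPM (SD, n = 4) in wild type and 47.5 ± 6.52 (SD, n = 6) in labelled knockout, against 55.8 ± 7.17 (SD, n = 6) after olive oil. The response to Western diet lay above that to CCl4 by 0.37 on the log2 scale (SE 0.13, edgeR adjusted p = 0.0478), and without the filter on low counts the adjusted p of this difference was 0.118.

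**Figure D3:**
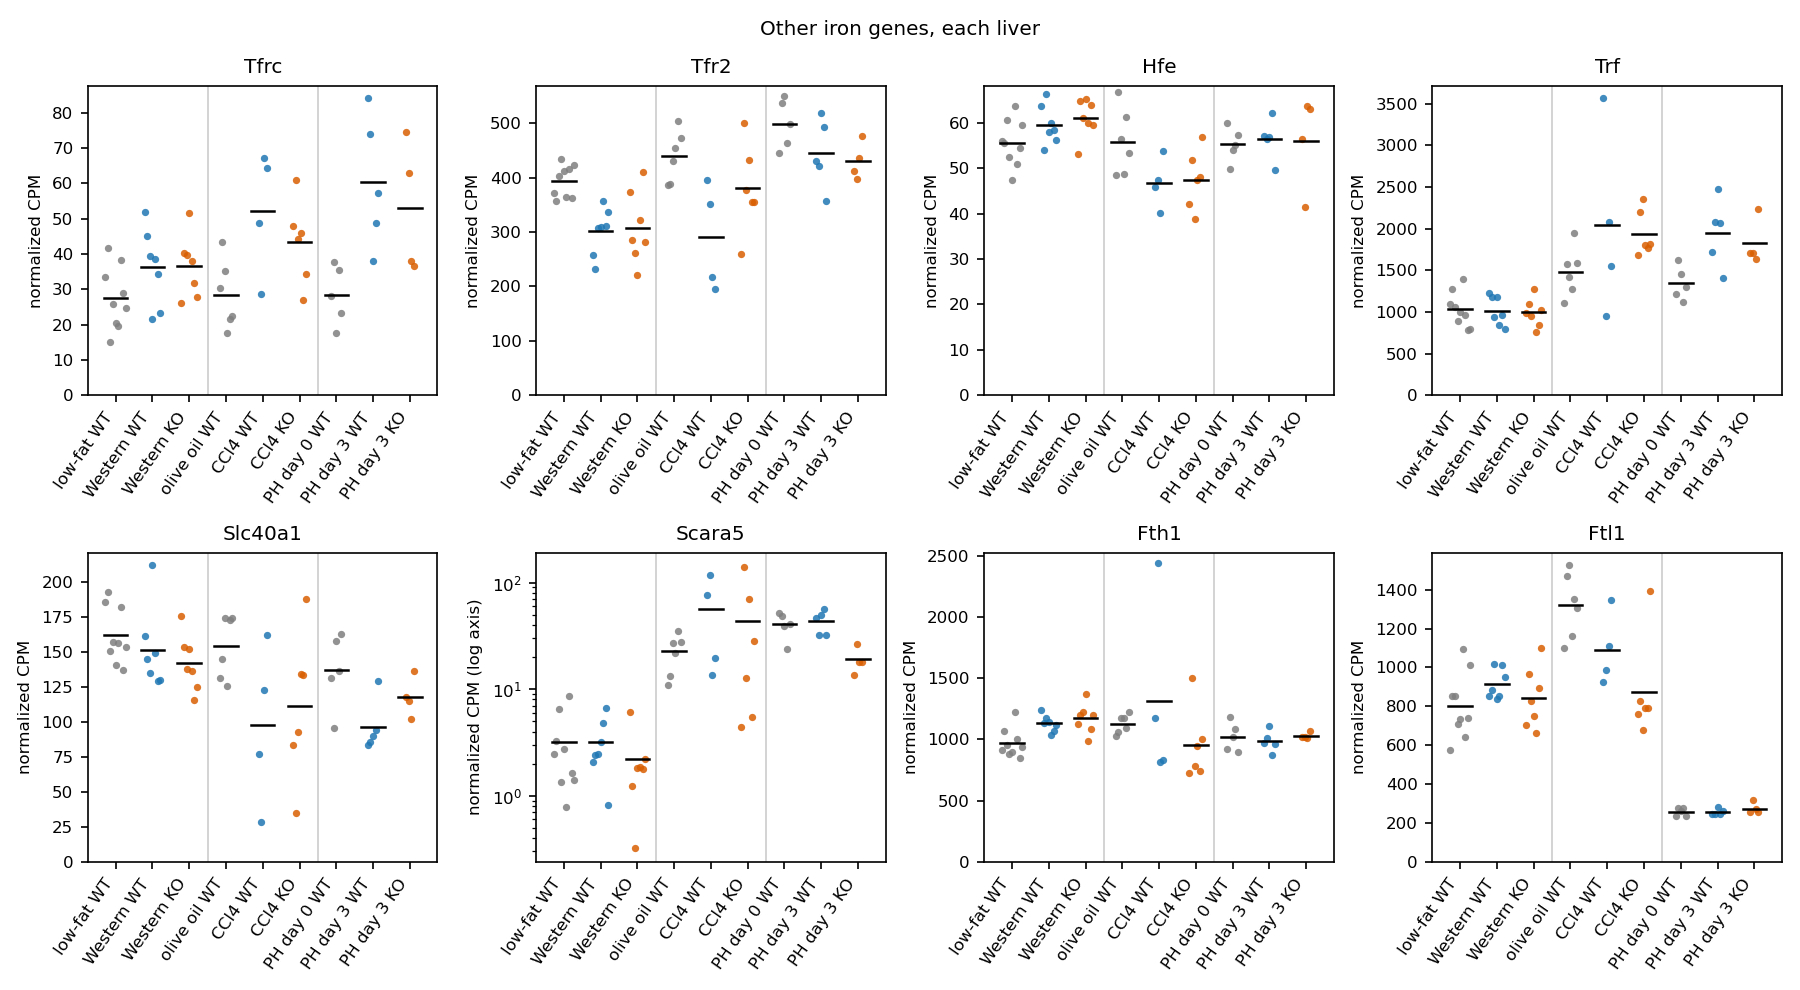
Normalized CPM of 8 further iron genes in each liver by group, with the group mean as a bar (axes start at 0 except for Scara5, on a log axis). Tfrc was higher at day 3 than at day 0 of hepatectomy in every wild-type liver, Scara5 was lower in the 4 labelled knockout day 3 livers than in the 5 wild-type ones, and 1 CCl4 liver had Fth1 at 2442 CPM.

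Tfrc (transferrin receptor 1, chr16:32608920-32632794), which takes up iron-loaded transferrin and is abundant in dividing cells, rose in both models of regrowth. At day 0 of hepatectomy it was 37.7, 17.5, 35.6, 23.3 and 28.2 CPM in mice 12 to 16, and at day 3 it was 84.1, 73.9, 37.9, 48.9 and 57.2. The lowest day 3 liver was at 37.9 and the highest day 0 liver at 37.7, so the groups just failed to overlap. Tfrc rose 2.11-fold (log2 fold change 1.08, SE 0.24, edgeR adjusted p = 0.00315). After CCl4 it was 48.9, 28.6, 67.3 and 64.4 CPM in livers 4, 34, 5 and 7, against 17.5 to 43.3 (median 26.4) after olive oil. Livers 4, 5 and 7 were above every olive oil liver, and liver 34 was not. Of the CCl4 livers with few markers of dividing cells, liver 34 had 28.6 CPM of Tfrc and liver 35 had 60.8, the highest of the labelled knockout. Tfrc rose 1.84-fold (log2 fold change 0.88, SE 0.28, edgeR adjusted p = 0.0343). This call rests on single livers: the adjusted p was above 0.05 in 7 of the 10 fits that left out 1 liver, for example 0.108 without CCl4 liver 5, and 0.0926 with the index as a covariate.

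On Western diet Tfrc ran from 21.7 to 51.9 CPM (median 38.5) against 15.2 to 41.7 (median 25.9), which was not called (log2 fold change 0.39, SE 0.20, edgeR adjusted p = 0.119). The 8 markers of dividing cells rose in all 3 wild-type comparisons, 8 of 8 each time, with median log2 fold changes of 2.03 on Western diet, 5.88 after CCl4 and 4.76 at hepatectomy. Of all tested genes 20.4%, 11.1% and 9.87% rose. The part of dividing cells in the rise of Tfrc was not tested. No difference in the response of Tfrc between challenges was called, the smallest edgeR adjusted p being 0.298.

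Trf (transferrin, chr9:103204001-103230444), the carrier of iron in blood and a major product of hepatocytes, rose at hepatectomy. It was 1617, 1457, 1117, 1299 and 1217 CPM in mice 12 to 16 at day 0 and 1722, 2081, 2474, 2069 and 1401 at day 3, with 4 of 5 day 3 livers above every day 0 liver. Trf rose 1.45-fold (log2 fold change 0.54, SE 0.14, edgeR adjusted p = 0.0103). With the 3 mouse labels that are spelled alike on both days (12N, 15 and 16) as a replicate block, it was 0.33 (edgeR adjusted p = 0.167). CCl4 livers 4, 34, 5 and 7 were at 3570, 956, 2073 and 1553 CPM, so that the highest and the lowest liver of the experiment were both in this group. The log2 fold change was 0.46 (SE 0.28, edgeR adjusted p = 0.256), and 0.70 without liver 34 (edgeR adjusted p = 0.0521). On Western diet it was -0.02 (SE 0.13, edgeR adjusted p = 0.922), with means of 1016 ± 175 (SD, n = 7) and 1030 ± 206 CPM (SD, n = 9).

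Slc40a1 (ferroportin, chr1:45908068-45926523), the exporter that hepcidin acts on, is expressed in Kupffer cells as well as hepatocytes. It fell 1.42-fold at hepatectomy (log2 fold change -0.50, SE 0.14, edgeR adjusted p = 0.0161), from 95.6, 158, 137, 163 and 131 CPM at day 0 to 83.1, 85.4, 90.1, 94.3 and 129 at day 3 in mice 12 to 16. Of the 5 day 3 livers 4 lay below every day 0 liver. Without day 0 liver 15 the adjusted p was 0.0529, and with the block on mice 12N, 15 and 16 the log2 fold change was -0.34 (edgeR adjusted p = 0.17). The summed Kupffer cell markers overlapped, at 208 to 320 CPM at day 0 and 232 to 455 at day 3, and of the 7 only Marco was called, higher. After CCl4 Slc40a1 was 77.2, 28.3, 123 and 162 CPM in livers 4, 34, 5 and 7, against 126 to 174 (median 159) after olive oil (log2 fold change -0.66, SE 0.41, edgeR adjusted p = 0.278). Livers 34 and 35 were the lowest of the CCl4 livers, at 28.3 and 34.8 CPM, with the other 8 at 77.2 to 188. With the index as a covariate the log2 fold change was -1.57 (edgeR adjusted p = 0.0154), a fit that rests on these livers. On Western diet it was -0.09 (SE 0.10, edgeR adjusted p = 0.506), and Hamp mRNA thus fell there without a called change in Slc40a1 mRNA.

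Scara5 (chr14:65666403-65764826) encodes a scavenger receptor that takes up ferritin. It was the only one of the 10 genes called between labelled knockout and wild type. At day 3 of hepatectomy it was 13.5, 26.7, 17.8 and 18.1 CPM in labelled knockout livers 17, 18, 19 and 20, and 46.2, 32.0, 49.3, 56.5 and 32.5 in wild-type mice 12 to 16. The groups did not overlap, as was the case for 2.68% of all tested genes. Scara5 fell 2.31-fold in the labelled knockout (log2 fold change -1.205, SE 0.23, edgeR adjusted p = 0.044), where 0.154% of 11026 tested genes were called, 0.0363% lower. The fold change stayed between -1.40 and -1.06 when each liver was left out in turn, but the adjusted p was above 0.05 in 6 of 9 such fits, up to 0.147 without wild-type mouse 15. The livers of day 0 were at 48.0, 38.7, 23.7, 40.6 and 52.1 CPM in mice 12 to 16, and no change was called in wild type (log2 fold change 0.10, SE 0.20, edgeR adjusted p = 0.798). The labelled knockout lay below day 0 as well (log2 fold change -1.11, edgeR adjusted p = 0.00281).

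In the other challenges Scara5 was not called without a covariate. After CCl4 it was 76.7, 118, 13.5 and 19.6 CPM in wild-type livers 4, 34, 5 and 7, and from 4.37 to 141 in labelled knockout livers, the highest being liver 35. Against olive oil the log2 fold change in wild type was 1.33 (SE 0.80, edgeR adjusted p = 0.255), and 3.24 with the index as a covariate (SE 0.72, edgeR adjusted p = 0.0038), a fit that rests on livers 22, 34 and 35. The log2 fold change of labelled knockout against wild type was -0.37 (SE 0.79, edgeR adjusted p = 0.965) after CCl4 and -0.57 (SE 0.51, edgeR adjusted p = 0.832) on Western diet. Over the 3 challenges together the mean labelled knockout effect on Scara5 was -0.71 (SE 0.35, edgeR adjusted p = 0.444), and none of the 10 genes was called for it, with 1 at an unadjusted p under 0.05, 0 by DESeq2 and 0.15% of 12646 tested genes called. Group means of Scara5 were 2.20 to 3.19 CPM in the diet table and 19.0 to 57.0 in the other tables.

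The ferritin genes Fth1 and Ftl1 encode the shell that stores iron. Fth1 (chr19:9980598-9985098, heavy chain) ran from 850 to 1225 CPM (median 936) on low-fat diet and from 1036 to 1239 (median 1135) in wild type on Western diet. The groups overlapped, and Fth1 rose 1.17-fold (log2 fold change 0.22, SE 0.08, edgeR adjusted p = 0.0264). Within the indices it was 0.32 (edgeR adjusted p = 0.051) and 0.16 (edgeR adjusted p = 0.418), and the adjusted p was above 0.05 without Western diet livers 5 or 17, without low-fat liver 26 and with no filter. In labelled knockout livers on Western diet it ran from 984 to 1370 CPM (median 1200), above low-fat diet by 0.27 on the log2 scale (edgeR adjusted p = 0.0127). After CCl4 it was 1173, 2442, 819 and 828 CPM in livers 4, 34, 5 and 7 against 1031 to 1223 (median 1134) after olive oil. The log2 fold change was 0.22 (SE 0.28, edgeR adjusted p = 0.617) with liver 34 and -0.26 (edgeR adjusted p = 0.458) without it, and with the index as a covariate it was 0.71 (edgeR adjusted p = 0.0373).

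Ftl1 (chr7:45457944-45459884, light chain) was not called in the 6 comparisons of challenge or label. After CCl4 it was 1110, 1349, 923 and 986 CPM in livers 5, 7, 4 and 34 and from 680 to 1394 (median 791) in labelled knockout, against 1101 to 1527 (median 1329) after olive oil. Labelled knockout CCl4 livers lay below olive oil by 0.59 on the log2 scale (log2 fold change -0.59, SE 0.18, edgeR adjusted p = 0.0488), and wild type by less (log2 fold change -0.27, edgeR adjusted p = 0.365), the difference between them not being called (edgeR adjusted p = 0.838). At hepatectomy Ftl1 was 257 ± 19.8 CPM (SD, n = 5) at day 0 and 256 ± 16.8 (SD, n = 5) at day 3. Other genes and pseudogenes of the ferritin family, 13 to 14 per table, were counted and none reached 1 CPM in a group. Of these Ftl1-ps1 is a near copy: 73.4% of the 50-base stretches of the Ftl1 transcript also occur in Ftl1-ps1. Reads that match both cannot be assigned, so levels of Ftl1 are uncertain.

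**Figure D4:**
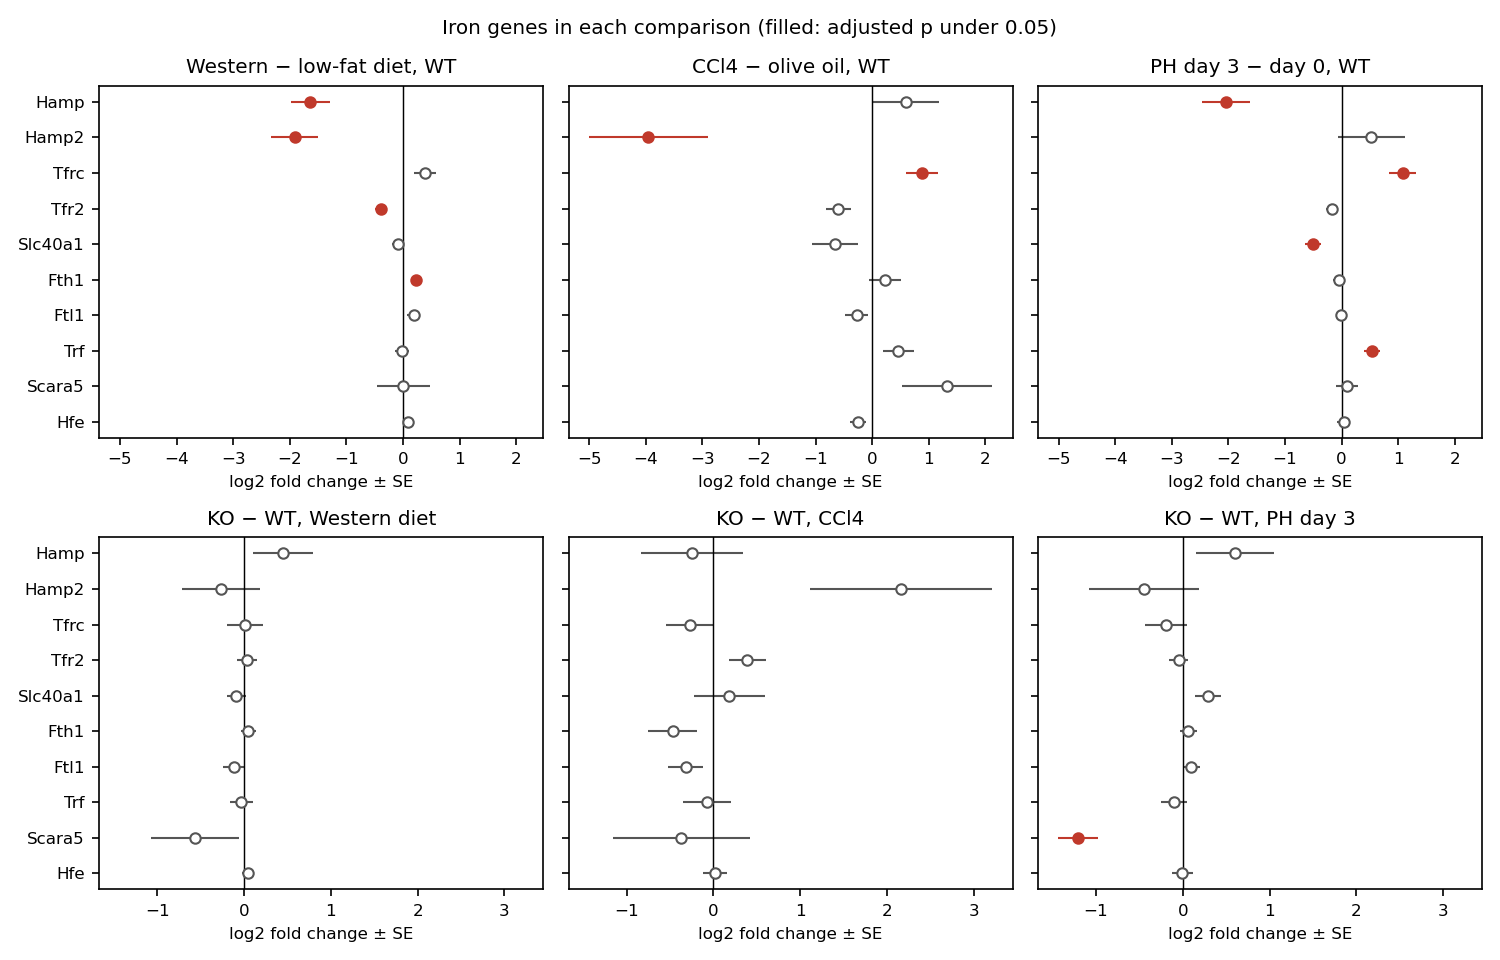
Log2 fold change ± SE of the 10 iron genes in each of the 6 comparisons, from the edgeR fits; filled red points have an adjusted p under 0.05, and PH is partial hepatectomy. The upper row, for the challenges in wild type, holds 10 filled points, and the lower row, for labelled knockout against wild type, holds 1, Scara5 at day 3 of hepatectomy.

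Of genes that act on hepcidin transcription, a smaller share than of all tested genes was called on Western diet and after CCl4. At hepatectomy the share was larger. Of 19 tested on Western diet 1 rose and 3 fell, where 20.4% of all tested genes rose and 17% fell (median log2 fold change -0.10, all genes -0.02). Smad4, the SMAD shared by the pathway, fell 1.17-fold from 33.6 ± 2.99 to 28.8 ± 1.96 CPM (edgeR adjusted p = 0.00884), the receptor Acvr2a 1.23-fold (edgeR adjusted p = 0.015) and Tmprss6, a protease that restrains hepcidin, 1.22-fold (edgeR adjusted p = 0.0174). Of 19 after CCl4 2 fell, where 11.1% of all tested genes rose and 8.87% fell (median 0.06, all genes 0.05): Tmprss6 by 1.96-fold, from 489 ± 26.4 to 250 ± 68.0 CPM (edgeR adjusted p = 0.0046), and Cebpa, a hepatocyte factor that drives Hamp, by 2.48-fold (edgeR adjusted p = 0.00876). Of 18 at hepatectomy 2 rose and 3 fell, where 9.87% of all tested genes rose and 7.5% fell (median -0.20, all genes -0.00): Cebpa fell 1.57-fold (edgeR adjusted p = 0.00084), Fgl1, a secreted protein that lowers hepcidin by binding BMPs, rose 2.14-fold from 707.3 ± 308 to 1514 ± 640 CPM (edgeR adjusted p = 0.00878), and Hfe2, the BMP co-receptor hemojuvelin, rose 1.28-fold (edgeR adjusted p = 0.0145). Tmprss6 was also lower at hepatectomy (log2 fold change -0.28, edgeR adjusted p = 0.0235), a call lost in 4 of 10 fits that left out 1 liver, up to an adjusted p of 0.0661 without day 3 liver 15. The ligand Bmp6 was not called in any of them, with log2 fold changes of -0.45 (edgeR adjusted p = 0.0624), -0.88 (edgeR adjusted p = 0.407) and -0.76 (edgeR adjusted p = 0.26).

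Of 8 genes induced by BMP-SMAD signals in liver 0 were called by edgeR on Western diet (median log2 fold change -0.07), where 37.4% of all tested genes were. After CCl4 1 of 8 rose, where 11.1% of all tested genes did: Id1, by 2.98-fold from 8.03 ± 7.23 to 24.4 ± 10.1 CPM (edgeR adjusted p = 0.0384, median 0.21). At hepatectomy 2 of 6 fell, where 7.5% of all tested genes did (median -0.83): Id2 by 2.03-fold, from 166 ± 27.8 to 81.3 ± 24.5 CPM (edgeR adjusted p = 0.000353), and Id3 by 2.10-fold, from 64.4 ± 19.1 to 30.5 ± 17.4 (edgeR adjusted p = 0.0275). The calls of Id1 and Id3 were each lost in 7 of 10 fits that left out 1 liver, with adjusted p up to 0.111 without CCl4 liver 4 and 0.0766 without day 3 liver 15.

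**Figure D5:**
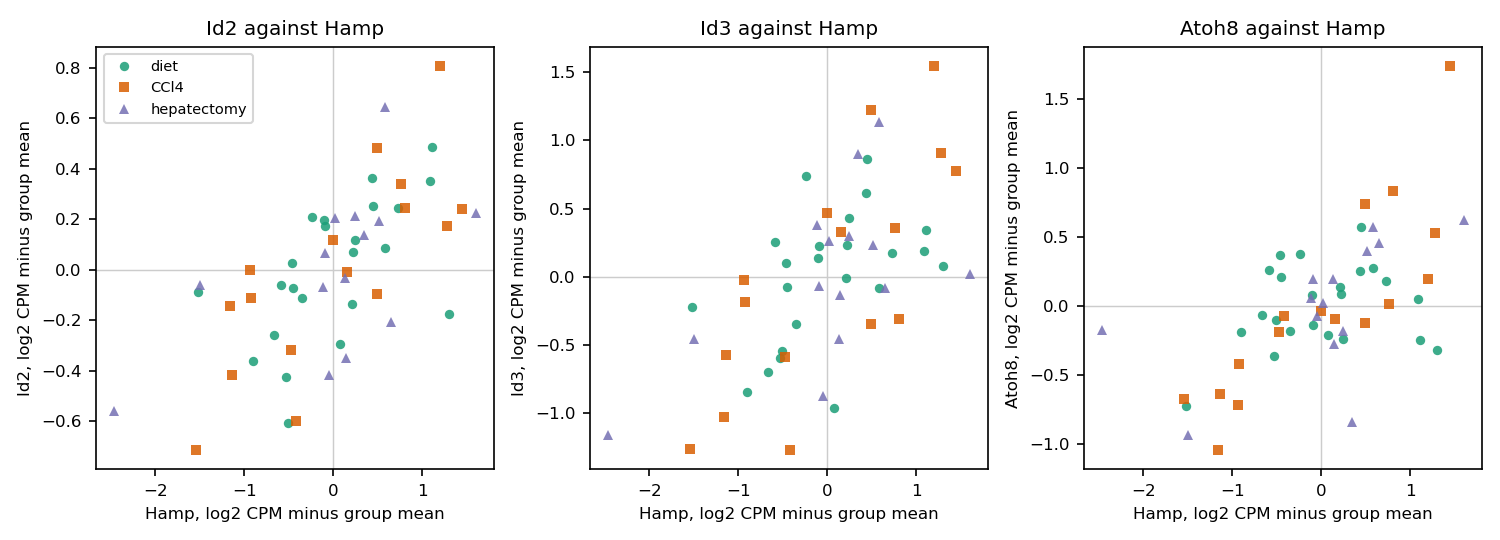
Id2, Id3 and Atoh8 against Hamp in the 53 livers, each as log2(CPM + 0.5) minus the mean of the liver's group, with the experiment shown by colour and marker. Livers with more Hamp than their group's mean tended to have more of each of the 3 genes, with Pearson's r of 0.649, 0.626 and 0.614. The i5 index, which differs between livers of some groups, was not removed.

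Within groups, BMP target genes were among those that varied most like Hamp. Of 10706 genes tested in all 3 tables, the 5 most like it over the 53 livers, after the group means were removed, were Gm4673 (Pearson's r 0.704, Spearman's rho 0.743), Id2 (0.649, 0.675), Id3 (0.626, 0.605), Atoh8 (0.614, 0.559) and Apoa5 (0.611, 0.566). The livers share their experiment's library preparation and depth, and these values are a description. Removing group means leaves the i5 index in place. Olive oil livers 28, 29 and 30 (D505) lay above their group's mean in Hamp, Id2, Id3 and Atoh8, and livers 24, 26 and 27 (D504) below it. CCl4 livers 34 and 35 (D505) lay above theirs in the same genes. The part of the index in these correlations was not tested. Within the diet, CCl4 and hepatectomy livers the r of Id2 was 0.562, 0.772 and 0.571, and that of Atoh8 0.247, 0.846 and 0.557. Gm4673 is an antisense RNA gene at chr7:30956909-30961619, 12.9 kb from Hamp, with Usf2 between them. It fell with Hamp on Western diet, from 6.71 ± 2.32 to 3.40 ± 1.66 CPM (log2 fold change -0.98, edgeR adjusted p = 0.0181), and at hepatectomy, from 5.41 ± 1.90 to 2.12 ± 1.46 (log2 fold change -1.38, edgeR adjusted p = 0.0364). It overlaps Lsr, and as the strand setting of the counting is not stated, reads of the 2 cannot be told apart. Hamp2 was not close to Hamp by this measure (r 0.153, rho 0.0613).

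The genes most like Tfrc were Fastkd2 (r 0.627, rho 0.576), Desi2 (0.621, 0.616), Ppp1cb (0.605, 0.604), Ncbp1 (0.582, 0.557) and Arntl (0.579, 0.616). Of these only Desi2 was called with Tfrc, with log2 fold changes of 1.26 after CCl4 (edgeR adjusted p = 0.00619) and 0.83 at hepatectomy (edgeR adjusted p = 0.00204). Within the hepatectomy livers its r with Tfrc was 0.129. Among the 10 genes themselves, Hamp went with Tfr2 (r 0.443, rho 0.444) and Scara5 (r 0.434, rho 0.377). Hamp2 went against both, Tfr2 (r -0.328, rho -0.409) and Scara5 (r -0.459, rho -0.474). Tfr2 went with Scara5 (r 0.61, rho 0.558), Fth1 with Scara5 (r 0.519, rho 0.311) and Tfrc against Tfr2 (r -0.418, rho -0.471). For Slc40a1 and Fth1 Pearson's r was -0.633 and rho -0.0592, livers 34 and 35 having the lowest Slc40a1 and the highest Fth1 of the CCl4 livers.

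Among further transporters, ferrireductases and ferroxidases of iron, most of those called rose. On Western diet 7 of 11 rose and 2 fell, where 20.4% of all tested genes rose and 17% fell (median log2 fold change 0.34). Lcn2, lipocalin 2, which withholds iron from bacteria, rose 20.1-fold from 4.22 ± 2.00 to 85.5 ± 45.7 CPM (edgeR adjusted p = 2.03e-07), Steap4, a ferrireductase, rose 1.77-fold (edgeR adjusted p = 0.00014) and Slc39a8, a metal importer, fell 1.23-fold (edgeR adjusted p = 0.00246). After CCl4 2 of 10 rose, where 11.1% of all tested genes did (median 0.78), Steap4 by 2.88-fold from 138 ± 43.6 to 398 ± 136 CPM (edgeR adjusted p = 0.00237) and Slc11a2, the transporter DMT1, by 1.43-fold (edgeR adjusted p = 0.0383, and 0.123 without liver 34). At hepatectomy 4 of 10 rose, where 9.87% of all tested genes did (median 0.29), among them Steap4 by 1.64-fold (edgeR adjusted p = 0.0129), Lcn2 by 5.63-fold (edgeR adjusted p = 0.0134) and Slc39a14, the importer of iron not bound to transferrin, by 1.32-fold (edgeR adjusted p = 0.0357, and 0.119 without day 3 liver 15).

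Of 11 genes that handle heme 7 rose and 2 fell on Western diet, where 20.4% of all tested genes rose and 17% fell (median log2 fold change 0.54). Hp, haptoglobin, which binds free haemoglobin, rose 1.94-fold from 2087 ± 369 to 4052 ± 1042 CPM (edgeR adjusted p = 2.75e-05), and the heme transporters Slc48a1 and Flvcr2 rose 1.45-fold (edgeR adjusted p = 5.13e-05) and 2.79-fold (edgeR adjusted p = 0.000135). After CCl4 2 of 11 rose, where 11.1% of all tested genes did, Slc48a1 and Hmox1, the enzyme that frees iron from heme. Hmox1 was 46.3, 272, 29.7 and 37.3 CPM in wild-type CCl4 livers 4, 34, 5 and 7, against 9.03 to 43.8 after olive oil. Its rise of 4.28-fold (edgeR adjusted p = 0.0449) rests on liver 34, without which it was 1.69-fold (edgeR adjusted p = 0.439), and that of Slc48a1 was not called without liver 7 (edgeR adjusted p = 0.0819). At hepatectomy Hmox1 rose 2.23-fold, from 14.5 ± 3.41 to 32.9 ± 2.32 CPM (edgeR adjusted p = 2.88e-05). There Hpx, hemopexin, rose 1.65-fold and Blvrb, a biliverdin reductase, fell 1.28-fold (edgeR adjusted p = 0.0311 and 0.0275), the only others of 11 called, where 9.87% of all tested genes rose and 7.5% fell. The calls of Hpx and Blvrb were lost without day 3 liver 14 (edgeR adjusted p = 0.098) and day 3 liver 16 (edgeR adjusted p = 0.0713).

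The remaining lists hold genes of iron use inside cells. Of 8 enzymes of heme synthesis 2 fell on Western diet, where 17% of all tested genes did, Urod by 1.14-fold and Fech, which puts iron into heme, by 1.13-fold (edgeR adjusted p = 0.0172 and 0.0333). After CCl4 2 fell, Fech by 1.35-fold from 181 ± 13.3 to 134 ± 10.3 CPM and Uros by 2.02-fold (edgeR adjusted p = 0.0286 and 0.0482), where 8.87% of all tested genes did, and at hepatectomy 1 rose, Alad, by 1.31-fold (edgeR adjusted p = 0.0258), where 9.87% did. Without 1 liver the calls of Fech, Uros and Alad were lost, with adjusted p up to 0.0727 for Fech on Western diet (without liver 14), 0.0785 for Fech and 0.13 for Uros after CCl4 (without liver 34) and 0.0796 for Alad (without day 3 liver 13). Of 12 genes of mitochondrial iron and iron-sulfur clusters 0 were called after CCl4, where 20% of all tested genes were, and 4 fell at hepatectomy, where 7.5% did. The latter include Glrx5 (1.34-fold, edgeR adjusted p = 0.00892), Iscu (1.60-fold, from 26.9 ± 4.18 to 16.7 ± 3.90 CPM, edgeR adjusted p = 0.0114) and Cisd1 (1.34-fold, edgeR adjusted p = 0.0204, and 0.0606 without day 3 liver 15). Of 6 iron regulatory proteins, iron chaperones and ferritin degradation genes 2 fell on Western diet, the iron chaperone Pcbp2 by 1.18-fold and the iron regulatory protein gene Ireb2 by 1.18-fold (edgeR adjusted p = 0.00319 and 0.0456, the latter 0.115 without liver 14), where 17% of all tested genes fell. After CCl4 and at hepatectomy 0 of these 6 were called, where 20% and 17.4% of all tested genes were, and 6 genes are few to set against such shares. In the comparisons of labelled knockout with wild type, 0 genes of these 7 further lists were called by edgeR in any challenge. Of all tested genes 0.0154% were called there on Western diet, 0.00857% after CCl4 and 0.154% at hepatectomy. At such shares a count of 0 says little about these lists.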

How the data were processed

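Polyadenylated RNA of 53 whole mouse livers had been sequenced. The values deposited by the authors are whole-number counts for Ensembl gene identifiers and carry no normalization. TopHat2 2.0.11, HTSeq and GRCm38 are named in the submitters' processing notes; the HTSeq version, annotation release and strand setting are not given in the sources used here. The hepatectomy table holds 53379 identifiers and the others 38293, so it was counted on another annotation.

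The quasi-likelihood test of edgeR 4.0.16 (R 4.3.3) was run on the 3 groups of one experiment at a time, with TMM normalization and filterByExpr. Called means an adjusted p (Benjamini-Hochberg, all tested genes) under 0.05. Levels given as CPM use the TMM factors. Responses to the challenges were compared in a joint fit of all 53 libraries. The share of Hamp2 in the hepcidin counts was compared by exact permutation tests (scipy 1.17.1). Symbols, positions and transcripts came from GENCODE vM21, promoters from RefSeq (GRCm38.p6, where both hepcidin genes matched).

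The 10 genes and 17 further lists were chosen with earlier results of these data known. Named genes are the 10, Bmp8b, up to 3 called genes with the smallest p per list in each wild-type comparison, and the 5 most like Hamp and Tfrc; Bmp6 was added after its values were seen, and 1 result on Western diet is not reported here. The fits were tested on simulated counts. In wild type, 81.2% of simulated 2-fold changes were called on Western diet, 32.8% after CCl4 and 71.6% at hepatectomy. Between labelled knockout and wild type it was 75.4%, 25.4% and 64.2%. A gene not called, above all after CCl4, may thus still have changed 2-fold. False calls were 2.74% to 7.86% of the calls, the highest share being that of hepatectomy in wild type. The alternatives were DESeq2 1.42.0, upper-quartile normalization, other filters, 2 groups alone, the i5 index as a covariate, libraries of 1 index, each library left out (also for the called genes of the lists), and a block on mouse numbers. Each library is 1 liver, and mouse numbers 12 to 16 recur at day 0 and day 3 of hepatectomy, with 13 and 14 spelled differently on the 2 days. No library was left out, and every pair within a group differed by more than counting error. The labels number the livers by mouse, and p-values measure only the spread between these livers.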

Additional observations from a re-analysis of the deposited data

Results flagged for a closer look

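Of 90 sets of values (10 genes in 9 groups), 7 held a liver whose gap to its nearest neighbour was large against the range of its group, by Dixon's test at 95%. Chance alone gives about 1 in 20. Hamp2 was 10.4 CPM in labelled knockout CCl4 liver 9, with the next highest at 2.97. Slc40a1 was 212 CPM in wild-type Western diet liver 23, with the next at 161, and 129 CPM in wild-type day 3 liver 16, with the next at 94.3. Fth1 was 1505 CPM in labelled knockout CCl4 liver 35, with the next at 1005, and Ftl1 was 1394 CPM in labelled knockout CCl4 liver 12, with the next at 827. Trf was 2236 CPM in labelled knockout day 3 liver 20, with the next at 1711. Scara5 was 6.11 CPM in labelled knockout Western diet liver 1, with the next at 2.23.

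The response to a challenge differed between experiments for 3 genes by the joint edgeR test. Hamp differed between Western diet and CCl4 by -2.21 on the log2 scale (edgeR adjusted p = 0.0172) and between CCl4 and hepatectomy by 2.62 (edgeR adjusted p = 0.0248). Hamp2 differed between CCl4 and hepatectomy by -4.53 (edgeR adjusted p = 0.0263). Hfe differed between Western diet and CCl4 by 0.37 (edgeR adjusted p = 0.0478). None of these 4 differences was called without wild-type CCl4 liver 34. The experiments also differ in age of the mice, sequencing depth and, for hepatectomy, gene annotation, which cannot be told apart from the challenge.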

How the results depend on the processing

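The falls of Hamp on Western diet and at hepatectomy, of Hamp2 on Western diet and the rise of Tfrc at hepatectomy kept their direction and their call under every alternative run. So did the fall of Hamp2 after CCl4 wherever it was tested; in the fit of 2 groups alone it did not pass the filter. Genes called on Western diet were 4869 and 1529 within index D502, with 2 of the 10 iron genes in place of 4. Genes called between labelled knockout and wild type on Western diet were 2, and 1 within index D501. After CCl4, 2331 genes were called and 3599 with the index as a covariate. With 2 groups alone 1142 rose and 964 fell, and without CCl4 livers 34 and 35 1527 rose and 1396 fell. Of the 10 iron genes 2 were called, 5 with that covariate and 0 with 2 groups alone. There were 4 without CCl4 livers 34 and 35, and 1 to 3 when 1 library was left out. Between labelled knockout and wild type after CCl4, 1 gene was called, 0 within index D503, 21 by DESeq2, 2 without livers 34 and 35 and 1 to 2 with 1 library left out. At day 3 of hepatectomy that comparison gave 17, 9 with upper-quartile normalization, 182 with no filter, 59 by DESeq2 and 3 to 40 with a library left out, with 0 to 1 iron genes. Between diet and CCl4, 2 of the 10 responses differed, 1 with no filter, 1 without liver 34 and 3 without livers 34 and 35. Between CCl4 and hepatectomy 2 differed, and 0 without liver 34 or without both. Causes were not tested, beyond the fewer samples or genes that some settings hold.

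The labelled knockout effect on Hamp on Western diet went from 0.45 to -0.60 within index D502. With a library left out, it ran from -0.67 to 0.26 after CCl4 and from -0.0214 to 0.98 at hepatectomy, and that on Hamp2 on Western diet from -0.45 to 0.10. The difference in Hamp2 share ran from -1.87 to 1.56 points on Western diet, from -1.39 to -0.97 after CCl4 and, for the labelled knockout after CCl4, from 0.22 to 0.75. Leaving out libraries for the share, and livers 34 and 35, was chosen after the data were seen. Of 890 alternative values of the 77 other uncalled results of single genes, 802 kept sign and call, 11 gained a call and 77 changed sign, none of the latter with a main log2 fold change above 0.47.

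Mouse numbers shared by day 0 and day 3 were not taken as pairs, as the labels do not say that a number is 1 animal. Same-number correlations ran from -0.0219 to 0.0914. Mice 12, 15 and 16, with labels spelled alike on both days, each matched their own number best (0.0338, 0.0744 and 0.0914). Mice 13 and 14, spelled differently, matched each other better. Whether the numbers are pairs was thus not settled. With all shared numbers as a replicate block, 1710 genes and 4 of the 10 were called, against 1915 and 4 without it. A replicate block on mice 12, 15 and 16 alone gave 1277 genes and 2 of the 10, with Slc40a1 at -0.34 (edgeR adjusted p = 0.17) and Trf at 0.33 (edgeR adjusted p = 0.167). Index as a covariate was not possible for hepatectomy. Depth limits the low genes: in CCl4 livers, 1 to 9 counts of Hamp2 lie behind each wild-type value.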

Other observations

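Markers of other cell types, from lists that were not part of the iron genes, were called to differing extents. On Western diet 9 of 9 markers of monocyte-derived macrophages rose, among them Gpnmb from 0.894 ± 0.475 to 38.9 ± 21.5 CPM (edgeR adjusted p = 1.73e-06), and 7 of 11 of stellate cells and fibroblasts, among them Col1a1 by 8.11-fold (edgeR adjusted p = 6.71e-06). Kupffer cell markers rose for 5 of 7, sinusoidal endothelial markers for 3 of 7, neutrophil markers for 3 of 4 and lymphocyte markers for 1 of 5. Of all tested genes 20.4% rose and 17% fell on Western diet, and the count of lymphocyte markers was near the share that rose. Of 10 acute phase genes 4 rose, Saa1 by 6.06-fold from 21.7 ± 7.82 to 132 ± 53.3 CPM (edgeR adjusted p = 2.43e-07), and 4 fell, Fga, Fgb, Fgg and Crp. The 10 together summed to 7534 to 10790 CPM in wild-type Western diet livers, against 11160 to 16800 on low-fat diet.

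After CCl4 7 of 8 macrophage and 5 of 10 stellate markers rose, with Gpnmb from 0.36 ± 0.263 to 60.5 ± 26.0 CPM (edgeR adjusted p = 3.04e-06), and 1 of 7 Kupffer cell and 1 of 4 neutrophil markers rose. Of all tested genes 11.1% rose and 8.87% fell there. The Kupffer cell marker was Marco, not called without liver 34 (edgeR adjusted p = 0.14), and the neutrophil marker was S100a9, likewise (edgeR adjusted p = 0.306). Of the 10 acute phase genes Apcs rose and Crp fell, calls lost without liver 4 (edgeR adjusted p = 0.62) and liver 34 (edgeR adjusted p = 0.0584), 2 of 7 endothelial and 1 of 10 hepatocyte markers fell, and the single lymphocyte marker tested was not called. At hepatectomy 6 of 10 stellate, 1 of 3 macrophage, 1 of 7 Kupffer cell and 1 of 2 neutrophil markers rose, 3 of 7 endothelial markers fell, 1 hepatocyte marker (Alb, 1.69-fold) rose and 2 fell, and 2 acute phase genes rose and 1 fell. Of all tested genes 9.87% rose and 7.5% fell at hepatectomy. Counts of 1 marker are too few to be set against such shares. Alas2, the heme synthesis enzyme of red cell precursors, fell in all 3 wild-type comparisons, from 143 ± 29.6 to 98.9 ± 22.3 CPM on Western diet, from 144 ± 23.4 to 21.9 ± 13.2 after CCl4 and from 192 ± 22.8 to 95.5 ± 19.4 at hepatectomy (edgeR adjusted p = 0.00491, 0.000904 and 2.83e-05), the only one of 6 to 7 erythroid markers called.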
